A study of Drosophila melanogaster with 7 samples.

Results

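The genes described here run the cell cycle of *Drosophila melanogaster*, from the licensing of replication origins through DNA synthesis to the separation of chromosomes in mitosis. They were measured in whole larvae of the 1st instar, the stage after hatching. The set holds 40 genes named for their textbook roles, and it was chosen with earlier results of these data known. A gene was measured if its current or older symbol matched a probe set of the array that names 1 gene, and 29 of the 40 did, out of 10844 genes with such a probe set. Each of the 29 had 1 probe set, and *DNApol-alpha50* and *DNApol-alpha180* were matched by older symbols to *Prim1* and *PolA1*. No probe set was assigned here to *Mcm7*, *geminin*, *RnrS*, *dap*, *stg*, *CycA*, *Cdk1*, *polo*, *aurA*, *Top2* and *BubR1*, so no value is given for these 11 genes. The measured members comprise 20 genes of S phase and its control, 8 genes of mitosis, and *fzr*, which belongs to neither list.

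The larvae carried a mutation in *pof*, whose protein binds RNA and chromosome 4, or were wild type. Each of the 7 Affymetrix arrays carries biotin-labelled polyA RNA from whole animals of mixed sex, with 4 pof mutant and 3 wild-type replicates and 400 larvae to a replicate. The labels name no treatment for either group, and no allele, genetic background or age in hours was given. The design text calls the mutant replicates biological.

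Most larval tissues of the fly grow by endocycles, in which S phase alternates with gap phases and cells become polyploid without dividing. Neuroblasts, imaginal disc cells and some other diploid cells divide by mitosis. In endocycling cells the kinase Cdk2 with cyclin E drives each S phase, the transcription factor E2F1 with its partner DP activates replication genes, and Fzr directs the mitotic cyclins to destruction. Many of these proteins are controlled by degradation and phosphorylation, which arrays of RNA do not show. A pool of whole larvae adds up all of these cells, so fewer cells of a type and less RNA per cell cannot be told apart.

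Levels are log2 expression values, and differences are pof mutant minus wild type on the log2 scale, so 1 unit is a doubling. A level can be compared between arrays for a gene and not between genes, because probe sets bind their targets unequally. The 29 members had means over the 7 arrays between 3.52 and 7.71, and 11 of them reached 6. *CycE*, *pim* and *fzr* lay under the 10th percentile of all probe sets, where the signal is near the floor of the array and changes are understated. The medians of the arrays ran from 6.01 to 6.06. The *Pof* transcript itself was 3.41 to 3.50 on the mutant arrays and 3.64 to 3.90 on the wild-type arrays (difference -0.33 ± 0.075, SE; limma, adjusted p = 0.323), so every mutant array lay below every wild-type array, in the direction of the labels. These levels are near the floor of the array, like those of *CycE*, *pim* and *fzr*. Groups without overlap, in either direction, were found in 6.26% of all genes. Whether the *Pof* probes fall in a deleted stretch is not given. Transcript evenness, measured as the 3' end signal minus the 5' end signal of control transcripts, set 3 arrays apart. It was 3.22, 3.95 and 4.32 (log2 scale) on 2 mutant arrays (replicates 1 and 2) and wild type replicate 1, and from 1.92 to 2.19 on the other 4.

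None of the measured members differed between the genotypes past the threshold, an adjusted p under 0.05 over all 13966 probe sets (limma), which 0.0644% of probe sets passed. Their smallest adjusted p was 0.962. An unadjusted p under 0.05 was reached by 0 of the 29 members and by 5.43% of all probe sets. In 0 members did the mutant arrays and the wild-type arrays fall without overlap, as they did in 6.26% of all genes. Of the members 19 had a lower mean in the mutant and 10 a higher one. Their median difference was -0.020, beside -0.019 over all 10844 genes, of which 58.0% were lower. For 26 of the 29 members (89.7%) the 95% interval of the difference lay within 1.5-fold either way, as it did for 89.0% of all probe sets. The exceptions were *PCNA*, *RnrL* and *E2f1*. A p that misses the threshold does not show that levels were equal, and the interval gives the sizes of change that remain possible.

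**Figure D1:**
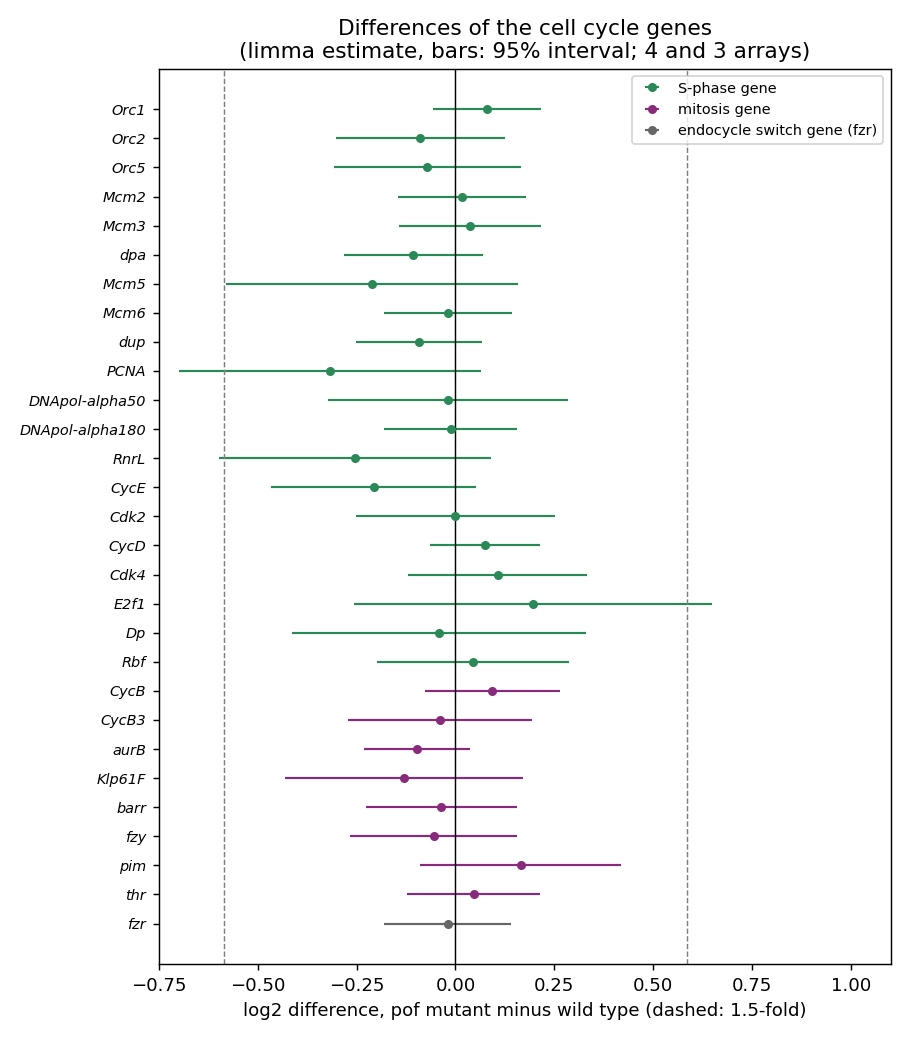
Log2 difference of each measured cell cycle gene, pof mutant minus wild type (x axis), with points for limma's estimate and bars for its 95% interval over 4 and 3 arrays, coloured by S-phase, mitosis or neither. Every interval includes 0, and only those of *PCNA*, *RnrL* and *E2f1* cross the dashed lines at 1.5-fold.

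Origin licensing loads the MCM helicase onto DNA in G1, with the origin recognition complex (ORC) and Dup, the fly Cdt1, as loaders. Of the 9 measured licensing genes 6 had lower and 3 higher means in the mutant (median difference -0.071). *Mcm2*, a helicase subunit, had log2 levels of 5.06, 5.17, 5.02 and 5.21 on pof mutant replicates 1 to 4. It had 5.08, 5.07 and 5.15 on wild type replicates 1 to 3. The wild-type values lay inside the mutant range, and the difference of 0.017 ± 0.070 (SE; limma, adjusted p = 0.983) had a 95% interval of -0.15 to 0.18. *Mcm5*, another subunit of the same ring, varied far more between arrays of a group, with 4.00, 4.50, 4.24 and 4.61 on pof mutant replicates 1 to 4. Wild-type larvae gave 4.76, 4.50 and 4.38 on wild type replicates 1 to 3. Mutant replicates 1 and 3 were below all wild-type arrays, the other two mutant arrays lay inside the wild-type range, and wild type replicate 1 was the highest of the 7. Its difference was -0.21 ± 0.16 (SE; limma, adjusted p = 0.962), with a 95% interval of -0.58 to 0.16.

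The other measured MCM subunits had group means closer together. *Mcm3* (X) ranged from 6.90 to 7.13 over the 7 arrays with a difference of 0.037 ± 0.077 (SE), and *Mcm6* (X) from 4.57 to 4.80 with -0.018 ± 0.070. *dpa*, which encodes the fly Mcm4, ranged from 6.33 to 6.61 with a difference of -0.11 ± 0.076. *Orc1*, an ATPase of ORC, spanned 0.15 (log2) over all arrays, 5.12 to 5.27, with a difference of 0.081 ± 0.059. That span was at the 6.40 percentile of the spans of all genes. *Orc2* and *Orc5* had differences of -0.089 ± 0.092 and -0.071 ± 0.10, and *dup* one of -0.091 ± 0.068, which left all 3 within 2 standard errors of 0. For these 7 genes limma's adjusted p was 0.962 or more.

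**Figure D2:**
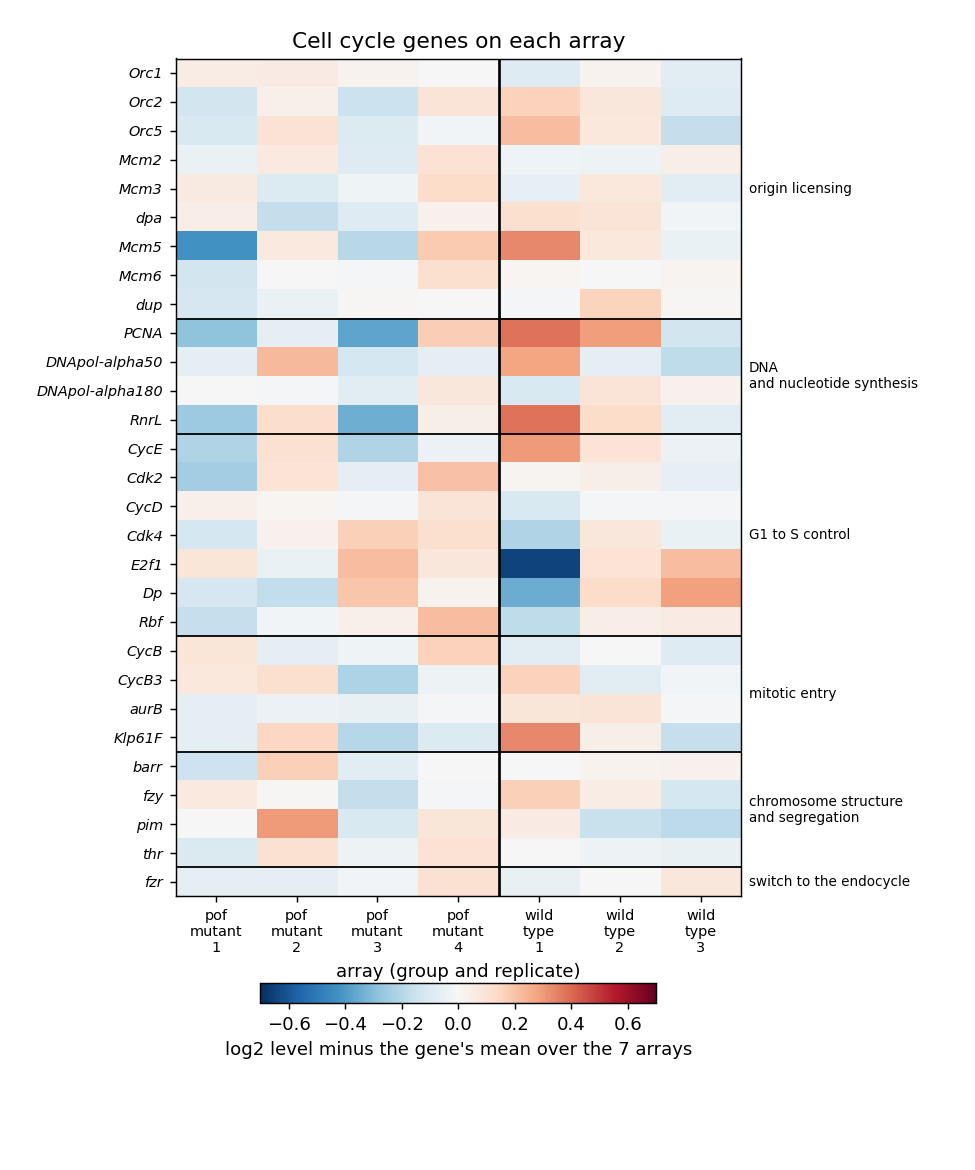
Log2 level of each measured cell cycle gene minus its own mean over the 7 arrays (colour), for 4 pof mutant and 3 wild-type arrays (columns), with genes (rows) ordered by role. *PCNA* and *RnrL* are low on pof mutant replicates 1 and 3, and *E2f1* and *Dp* are lowest on wild type replicate 1, while most other genes differ little between arrays.

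The genes of DNA and nucleotide synthesis included the member with the smallest p, *PCNA*. All 4 measured genes had lower means in the mutant (median difference -0.14), and none passed the threshold. The gene encodes the sliding clamp that holds DNA polymerase on its template, and its log2 levels were 7.24, 7.46, 7.15 and 7.70 on pof mutant replicates 1 to 4. They were 7.90, 7.82 and 7.40 on wild type replicates 1 to 3. Pof mutant replicates 1 and 3 lay below every wild-type array, and replicates 2 and 4 lay inside the wild-type range. The array mean was 7.39 ± 0.24 (SD, n = 4) for mutant larvae, and wild type averaged 7.71 ± 0.27 (SD, n = 3), a level 1.25-fold that of the mutant. The difference of -0.32 ± 0.16 (SE) had a 95% interval of -0.70 to 0.065 and did not pass (limma, unadjusted p = 0.0917, adjusted p = 0.962).

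*RnrL*, the large subunit of ribonucleotide reductase, which makes the deoxynucleotides for S phase, showed nearly the same order of arrays. Its levels were 6.29, 6.67, 6.20 and 6.59 on pof mutant replicates 1 to 4. They were 6.92, 6.68 and 6.47 on wild type replicates 1 to 3. Again pof mutant replicates 1 and 3 were the 2 lowest arrays and wild type replicate 1 the highest, and replicates 2 and 4 lay inside the wild-type range. The difference was -0.25 ± 0.15 (SE; limma, adjusted p = 0.962), with a 95% interval of -0.60 to 0.090. DNA polymerase alpha starts each new strand. *DNApol-alpha50*, its primase subunit, ranged from 5.29 to 5.75 with a difference of -0.019 ± 0.13, was also highest on wild type replicate 1, and was lowest on wild type replicate 3, followed by mutant replicates 3 and 1. *DNApol-alpha180*, the catalytic subunit, ranged from 7.47 to 7.67 with a difference of -0.012 ± 0.072, and was lowest on wild type replicate 1.

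The G1 to S regulators had differences of both signs, none past the threshold. Of 7 measured genes 4 had higher and 3 lower means in the mutant (median difference 0.045). *CycE*, the cyclin whose pulses start S phase in both dividing and endocycling cells, had 3.34, 3.66, 3.34 and 3.51 on pof mutant replicates 1 to 4. In wild type it had 3.85, 3.65 and 3.51 on wild type replicates 1 to 3. Pof mutant replicates 1 and 3 were again below all wild-type arrays and wild type replicate 1 was the highest, and the groups overlapped. The difference was -0.21 ± 0.11 (SE; limma, adjusted p = 0.962; 95% interval -0.47 to 0.052). Its partner kinase gene *Cdk2* spanned 0.45 over the 7 arrays, with a difference near 0 and a 95% interval of -0.25 to 0.25. *CycD* (X) and its kinase gene *Cdk4*, which promote growth and G1 progress, had differences of 0.076 ± 0.060 and 0.11 ± 0.097.

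*E2f1*, *Dp* and *Rbf* encode the activator of S-phase genes, its binding partner and the retinoblastoma protein that restrains it. *E2f1* had 6.71, 6.58, 6.84 and 6.71 on pof mutant replicates 1 to 4. It had 5.98, 6.72 and 6.84 on wild type replicates 1 to 3. Wild type replicate 1 lay below all 6 other arrays, and the others of both groups shared a range of 6.58 to 6.84. The difference of 0.20 ± 0.19 (SE; limma, adjusted p = 0.962) had the widest 95% interval of the members, -0.26 to 0.65. Without wild type replicate 1 it was -0.070. *Dp* and *Rbf* (X) were also lowest on that array, with differences of -0.042 ± 0.16 and 0.045 ± 0.10. *CycD* and *Cdk4* also had their lowest value there. That array was the lowest for 7 of the 29 members (24.1%), a share close to the 23.5% of all genes. Wild type replicate 1 had the largest 3' minus 5' difference of the controls, and with that difference as a covariate *E2f1* stood at 0.23 ± 0.097.

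**Figure D3:**
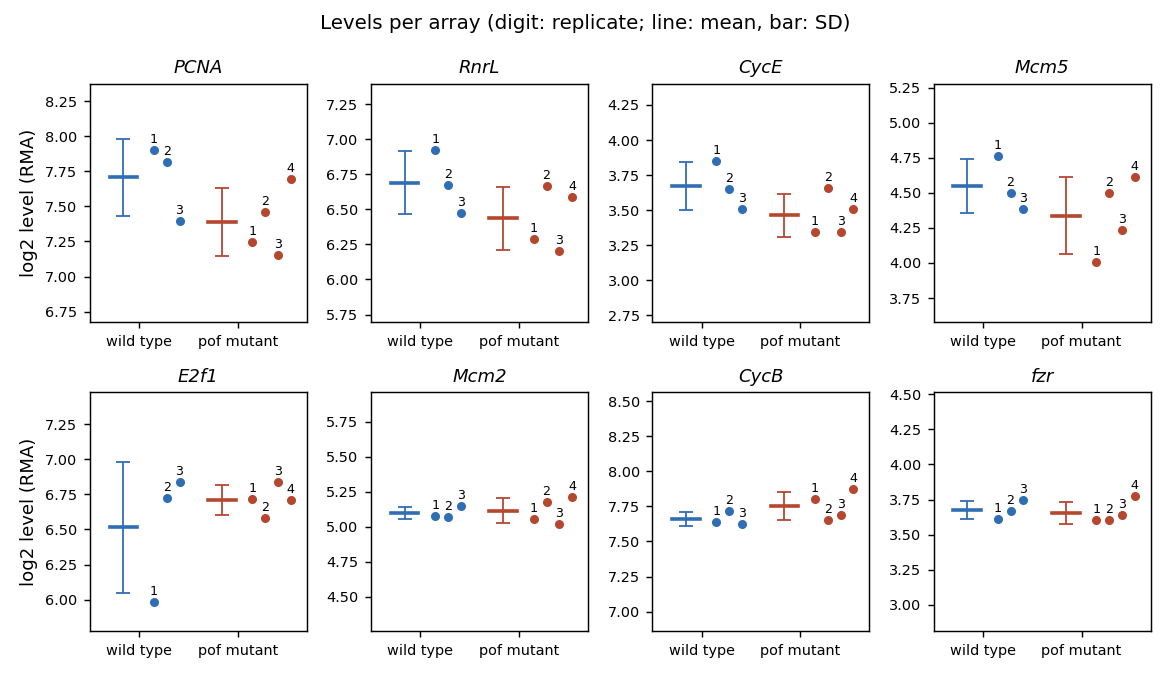
Log2 expression level (y axis, each panel spanning the same width) of 8 cell cycle genes on each array, with points numbered by replicate, lines for the group mean and bars for the SD, for wild type (n = 3) and pof mutant (n = 4). The groups overlap in every panel, and pof mutant replicates 1 and 3 are the lowest arrays for *PCNA*, *RnrL* and *CycE*.

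No mitosis gene passed the threshold, and their differences lay between -0.13 and 0.16. Of the 8 measured genes 5 had lower and 3 higher means in the mutant (median difference -0.038), and all 8 had a 95% interval within 1.5-fold. Only 2 of the 8 reached a mean of 6. *pim*, *fzy*, *aurB* and *thr* lay at the 4.07, 10.6, 11.5 and 13.1 percentiles of all probe sets. Changes are understated near the floor of the array, so narrow intervals at such low levels say less about the transcripts. *CycB*, a mitotic cyclin, had 7.80, 7.65, 7.69 and 7.87 on pof mutant replicates 1 to 4. It had 7.64, 7.71 and 7.62 on wild type replicates 1 to 3. Replicates 1 and 4 of the mutant were above all wild-type arrays and replicates 2 and 3 within their range, with a difference of 0.094 ± 0.074 (SE; limma, adjusted p = 0.962). *CycB3*, a cyclin of late mitosis, ranged from 5.31 to 5.70 with a difference of -0.040 ± 0.10. *aurB*, the kinase of the chromosomal passenger complex, had the smallest p of the mitosis genes. It had 3.98, 4.00, 3.99 and 4.03 on pof mutant replicates 1 to 4. Its wild-type levels were 4.13, 4.14 and 4.03 on wild type replicates 1 to 3. Mutant replicates 1 to 3 lay below all wild-type arrays, and replicate 4 (4.0336) was barely above wild type replicate 3 (4.0328). All values lay within 0.16 of each other, and the difference was -0.098 ± 0.058 (SE; limma, adjusted p = 0.962). *Klp61F*, the kinesin-5 motor that pushes spindle poles apart, ranged from 6.22 to 6.76 with a difference of -0.13 ± 0.13, and was highest on wild type replicate 1.

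Among the genes that pack and separate chromosomes, *barr*, a condensin subunit, had a difference of -0.035 ± 0.083 (SE) and *fzy*, the Cdc20 activator of the anaphase-promoting complex, one of -0.055 ± 0.091. *pim*, the fly securin, had 3.53, 3.82, 3.41 and 3.61 on pof mutant replicates 1 to 4. It had 3.58, 3.37 and 3.34 on wild type replicates 1 to 3. Mutant replicates 2 and 4 were above all wild-type arrays and replicates 1 and 3 within their range, with a difference of 0.16 ± 0.11 (SE; limma, adjusted p = 0.962; 95% interval -0.089 to 0.42). *thr*, which acts with Pim and separase, differed by 0.046 ± 0.072. *fzr*, the Cdh1 activator that takes cells from mitotic cycles to endocycles, had 3.60, 3.60, 3.64 and 3.77 on pof mutant replicates 1 to 4. Wild type gave 3.61, 3.67 and 3.74 on wild type replicates 1 to 3. These values lay within 0.17 of each other near the floor of the array, with a difference of -0.020 ± 0.070 (SE; limma, adjusted p = 0.983).

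S-phase genes, used by endocycling and dividing cells, were set against mitosis genes, used by dividing cells. The median difference was -0.019 over 20 S-phase genes and -0.038 over 8 mitosis genes, which are 0.019 apart. The lists differ in level, since 9 of the S-phase genes and 2 of the mitosis genes reached a mean of 6. Per array, the S-phase median minus the mitosis median of deviations from each gene's mean was -0.090, -0.091, 0.021 and 0.089 on pof mutant replicates 1 to 4. It was -0.068, 0.063 and 0.027 on wild type replicates 1 to 3. Both groups hold values above and below 0, and the gap between arrays of a group was wider than the gap between the groups. Averaged over arrays, the median deviation of the mutant minus that of wild type was -0.034 for S-phase genes and -0.0089 for mitosis genes. This order is the reverse of that of the median differences, so the direction of the contrast depends on the measure. *stg*, *CycA* and *Cdk1*, which start mitosis, and *geminin* and *dap*, inhibitors of licensing and of CycE with Cdk2, have no value here.

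Many members shared their low or high arrays. Over the 20 S-phase genes the median deviation was -0.12 on pof mutant replicate 1 and -0.071 on replicate 3, but 0.020 and 0.085 on replicates 2 and 4. On wild type replicates 1 to 3 it was 0.0034, 0.077 and -0.042. Over all genes the same medians lay between -0.024 and 0.033. Of the 29 members 15 (51.7%) had their lowest value on pof mutant replicate 1 or 3, as did 32.3% of all genes, and 1 had its highest value there, as did 21.3% of all genes. Pof mutant replicate 4 was the highest array for 8 members (27.6%) and for 7.53% of all genes. Wild type replicate 1 was the highest or lowest array for 18 members, and for 58.9% of all genes. It was the highest for 11 members (37.9%) and 35.4% of all genes, and the lowest for 7 members (24.1%) and 23.5% of all genes, so these shares were close. These array counts were made after the values were seen, and are descriptions of these pools.

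**Figure D4:**
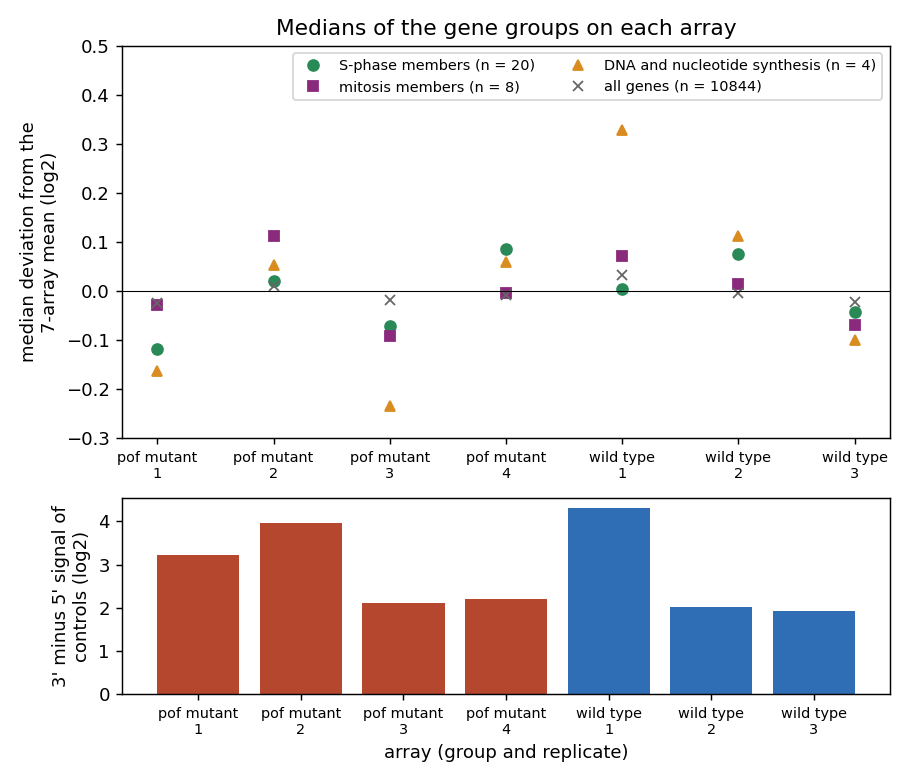
Upper panel, median deviation from each gene's 7-array mean (log2) of the S-phase, mitosis and DNA and nucleotide synthesis genes and of all genes on each array, and lower panel, the 3' minus 5' signal difference of control transcripts (log2), red for pof mutant and blue for wild type. The median of the 4 synthesis genes runs from -0.23 on pof mutant replicate 3 to 0.33 on wild type replicate 1, wider than the other medians. A median of so few genes moves more easily than that of a longer list, and *DNApol-alpha180* was lowest on wild type replicate 1.

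The members differed in how much they varied. Their span over the 7 arrays ran from 0.15 for *Orc1* to 0.86 for *E2f1*, with a median of 0.33 (log2), beside 0.37 for all genes. *E2f1*, *Mcm5*, *PCNA* and *RnrL* were the 4 widest, at the 91.3, 88.3, 88.1 and 86.9 percentiles of all genes. *PCNA*, *RnrL* and *Mcm5* each had wild type replicate 1 as the highest array, while *E2f1* had it as the lowest. None of the members lies on chromosome 4, the target of Pof. The 5 members on the X had a median difference of 0.037, and those of 2L (7), 2R (8), 3L (2) and 3R (7) medians of -0.071, 0.0021, -0.074 and -0.012.

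With the 3' minus 5' difference as a covariate, 3 of the 29 members had an unadjusted p under 0.05, against 15.3% of all probe sets, and none passed the threshold, which 0.616% of probe sets did. They were *CycE* at -0.22 ± 0.080 (SE), *RnrL* at -0.27 ± 0.11 and *E2f1* at 0.23 ± 0.097, with limma adjusted p of 0.270, 0.315 and 0.327. The sign of *E2f1* was not kept when wild type replicate 1, the array of largest 3' minus 5' difference, was left out instead (-0.070). *PCNA* was at -0.33 ± 0.15 in that fit (adjusted p = 0.360). Without the 3 arrays of largest 3' minus 5' difference, which leaves 2 arrays in each group, no member had an unadjusted p under 0.05, as 4.97% of all probe sets did. Arrays weighted by their estimated variance gave 6 members with an unadjusted p under 0.05, against 25.6% of probe sets, and 1 member, *dup*, past the threshold, against 8.59%. That fit rests mostly on wild type replicate 2 in its group, and weights estimated gene by gene gave 2 members (*dup* and *pim*) against 10.6% and none past the threshold. The count was 1 (*PCNA*) against 5.37% with the replicate number as a block, 1 (*pim*) against 5.84% after another quantile normalization, and 2 (*PCNA* and *CycE*) against 7.82% without wild type replicate 3.

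No gene of the wider cell cycle machinery passed the threshold either. Of 104 further genes listed for replication, mitosis and G1 or checkpoint control, 90 were measured. None passed in either direction (limma), 2 had an unadjusted p under 0.05, a smaller share than the 5.43% of all probe sets, and 64 (71.1%) had lower means in the mutant, beside 58.0% of all genes. Their median difference was -0.048. Among 30 other S-phase genes 23 had lower means, with a median difference of -0.070. *Psf2*, a subunit of the GINS complex of the replicative helicase, had 6.35, 6.20, 6.20 and 6.28 on pof mutant replicates 1 to 4. It had 6.45, 6.46 and 6.36 on wild type replicates 1 to 3. All mutant arrays were below all wild-type arrays, by a small step, and the difference of -0.17 ± 0.066 (SE) did not pass (limma, adjusted p = 0.863). Of the 90 genes 3 had groups without overlap, *Psf2* and *CycH* lower and *rod*, of the spindle checkpoint, higher in the mutant. Over all genes 6.26% had groups without overlap, a larger share. *Cdc7*, the kinase that fires origins, and *Cdc45*, another helicase subunit, had differences of -0.17 ± 0.073 and -0.19 ± 0.10.

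Over 43 other mitosis genes the median difference was -0.020, and 29 had lower means. The separase gene *Sse* (-0.18 ± 0.11, SE), the centriole gene *Sas-6* (-0.13 ± 0.083) and *tum*, a component of the central spindle (-0.14 ± 0.095), had the smallest p. Of 17 G1 and checkpoint genes 12 had lower means, with a median of -0.048. *CycH*, the cyclin of the kinase that activates other Cdks, had 6.45, 6.56, 6.63 and 6.63 on pof mutant replicates 1 to 4. It had 6.72, 6.81 and 6.76 on wild type replicates 1 to 3. Its groups did not overlap, and the difference of -0.20 ± 0.069 (SE) missed the threshold (limma, adjusted p = 0.790). *trbl*, which promotes the destruction of String, had 0.10 ± 0.071 and *Rbf2* -0.18 ± 0.13.

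Genes listed as markers of dividing and endocycling cells are set beside these values. Neuroblast markers had a median difference of 0.0064 over 8 genes, 4 higher and 4 lower, and their summed linear signal was 542 to 577 on mutant and 543 to 568 on wild-type arrays. Within it *wor*, a neuroblast transcription factor, had a difference of -0.26 ± 0.10 (SE) with no overlap of the groups, and *brat*, which limits neuroblast renewal, 0.23 ± 0.094 (limma, adjusted p = 0.882 and 0.885). All 5 measured imaginal disc markers, of 7 listed, had lower means in the mutant, by a median of -0.076, with summed signals of 515 to 544 against 526 to 588. None of the 5 had an unadjusted p under 0.05.

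Markers of endocycling tissues, 5 of 8 measured, had a summed signal of 4471 to 8539 on mutant arrays and 3028 to 3389 on wild-type arrays. The list's median difference was 0.048, with 3 genes higher and 2 lower, and the gap in the sums came with the trypsin genes of the gut. The fat body genes *Lsp2* and *Fbp1* and the salivary gland factor *fkh* had differences of 0.048 ± 0.082, -0.13 ± 0.13 and -0.056 ± 0.057 (SE). Whether they mark their tissues in the 1st instar was not examined, so these values do not measure amounts of tissue. *alphaTry* had 11.08, 9.83, 11.48 and 10.19 on pof mutant replicates 1 to 4. It had 8.95, 10.29 and 10.76 on wild type replicates 1 to 3. Its limma difference was 0.65 ± 0.52 (SE, adjusted p = 0.962). Pof mutant replicates 1 and 3 were the 2 highest arrays for this trypsin. On the same arrays other genes of the list were lowest, *fkh* on replicate 1 (6.28) and *Lsp2* on replicate 3 (6.82). *betaTry*, a neighbouring near copy of *alphaTry* whose probes may share its target, was highest on pof mutant replicate 3. Its difference was 1.37 ± 0.22 (SE; limma, adjusted p = 0.156) with no overlap of the groups. The part of these markers in the differences of the S-phase genes was not tested. No marker is at 0, since RMA values have no zero.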

How the data were processed

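Larval RNA was hybridised to 1-colour Affymetrix arrays. Values were analysed as deposited, on a log2 scale after RMA (background correction, quantile normalization, probe set summary), the tool named in the submitters' processing notes. A platform table named 1 gene for 12443 of 13966 probe sets, 44 controls left out, with symbols from RefSeq (Release 6). The probe set of highest mean stood for a gene. Groups came from the sample titles. All probe sets were fitted with limma 3.58.1 in R 4.3.3 (lmFit, eBayes, no covariate), with Benjamini-Hochberg adjustment over all of them, and errors are its moderated standard errors. The limma fit was tested on simulated data with independent normal noise of the same size on every array, unlike the uneven arrays here.

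The members and lists were chosen with earlier results of these data known, so lists are described and not tested. Values per array are given for the 4 members with the smallest p, for textbook members of each role (*Mcm2*, *PCNA*, *RnrL*, *CycE*, *CycB*, *fzr*), and for *Mcm5*, *E2f1* and *pim*, chosen after their values were seen. Up to 3 genes of each further list are named by smallest p, and *rod*, *Lsp2*, *Fbp1* and *fkh* beyond the rule, after their values were seen. Alternatives were another quantile normalization, median centring, the replicate block, trend and robust eBayes, array weights, the evenness covariate, a level limit of 6, leaving out probe sets with an ambiguous suffix, the mean of a gene's probe sets, stricter thresholds and leaving out arrays. matplotlib 3.10.9 and Python 3.11.15 drew the figures.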

Additional observations from a re-analysis of the deposited data

Results flagged for a closer look

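In 1 of 29 sets of 4 mutant values an array lay farther from the other 3 than Dixon's 95% limit allows, where chance gives about 1 in 20, or 1.45 here. *DNApol-alpha50*, the primase subunit, had a level of 5.70 on pof mutant replicate 2, while the other mutant arrays had a median of 5.40. Its ratio of gap to range, 0.8295, is barely past the limit. The wild-type level reached 5.75 on replicate 1. Groups of 3 were not examined.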

How the results depend on the processing

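No member passed the threshold in any alternative other than default array weights, where *dup* did (-0.19; limma, adjusted p = 0.0388). That fit gave wild type replicate 2 a weight of 17.1 and its estimate stopped before converging. It counted 1200 probe sets and 1 member past the threshold, 6 other cell cycle genes, and 6 members with an unadjusted p under 0.05. Weights estimated gene by gene, chosen after seeing the data, gave 76 probe sets and 2 members with an unadjusted p under 0.05, and adjusted p of members of at least 0.447. The count of all probe sets past the threshold, 9, was 86 with the covariate, 16 with the mean of a gene's probe sets, 4 at an adjusted p under 0.01, and 0 without the 3 arrays of largest 3' minus 5' difference (also chosen after seeing the data). Leaving out 1 array at a time gave 0 to 34, with 0, 5 and 5 without pof mutant replicates 1, 2 and 3, and 34 and 2 without wild type replicates 1 and 2. Members with an unadjusted p under 0.05 numbered 3 with the covariate, 1 (*pim*) after another quantile normalization and 0 to 2 with 1 array left out, where *CycE* and *PCNA* were the 2 without wild type replicate 3. Deviations from the group means of same-numbered arrays correlated at 0.245, -0.571 and 0.559 for replicates 1 to 3, so the numbers were not taken to pair the arrays. With the replicate number as a block, which cannot use pof mutant replicate 4, 2 probe sets and no member passed, and 1 member, *PCNA*, had an unadjusted p under 0.05 (-0.42; limma, adjusted p = 0.667). The block turned the sign of *Mcm2* -0.015, *Mcm3* -0.00031, *Rbf* -0.022. With 1 array left out, the medians ran from -0.057 to -0.0017 for S-phase genes, -0.075 to 0.021 for mitosis genes and -0.054 to 0.049 for their difference. Several differences changed sign, those of *E2f1* and *Klp61F*, farther from 0, among them. Array weights gave *Mcm3* -0.024, *Mcm6* 0.00092, *DNApol-alpha50* 0.024, *Cdk4* -0.027, *Rbf* -0.0085, *CycB3* 0.045, *fzr* 0.0021; weights gene by gene gave *DNApol-alpha50* 0.041, *Rbf* -0.0096, *CycB3* 0.027. Another quantile normalization gave *Mcm6* 0.0098, *Cdk2* 0.013, *fzr* 0.014, centring gave *Cdk2* 0.011 and the covariate *Cdk2* 0.00021. Without the 3 arrays the values were *Mcm6* 0.041, *DNApol-alpha50* 0.028, *Cdk2* 0.081, *E2f1* -0.0063, *fzr* 0.0017. With 1 array left out the ranges that crossed 0 were *Orc5* -0.18 to 0.016, *Mcm2* -0.015 to 0.049, *Mcm3* -0.00031 to 0.084, *Mcm6* -0.058 to 0.022, *DNApol-alpha50* -0.12 to 0.11, *DNApol-alpha180* -0.068 to 0.031, *Cdk2* -0.069 to 0.080, *E2f1* -0.070 to 0.36, *Dp* -0.23 to 0.091, *Rbf* -0.032 to 0.10, *CycB3* -0.089 to 0.031, *Klp61F* -0.25 to 0.0028, *barr* -0.095 to 0.0086, *fzy* -0.13 to 0.012, *fzr* -0.059 to 0.014. In all, 50 of 504 member values changed sign, and the cause was not tested. Some of the 504 could not change sign, because the fit leaves a member's difference as it was. These are trend and robust eBayes, the level limit, leaving out ambiguous suffixes and the mean of a gene's probe sets. The share therefore understates how often signs changed in the other fits. The number of arrays limits the precision, and near the floor of the array changes are understated.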

Other observations

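Germ line cells and embryonic RNA are other sources of cell cycle transcripts in whole larvae. Of 8 germ line genes 5 had lower means in the mutant. The median difference was -0.028, with differences between -0.10 and 0.054. Of 10 genes of the egg and early embryo 7 had lower means, with a median of -0.021. No gene of either list had an unadjusted p under 0.05 (limma). The germ line list had its highest median deviation on wild type replicate 1 (0.20), as did the list of the egg and early embryo (0.18), and every other array lay between -0.097 and 0.067 in both. That array had the largest 3' minus 5' difference (4.32) and was the highest for 35.4% of all genes. Neuroblast (0.078) and imaginal disc markers (0.069) also had their highest median deviation there, while endocycling markers had theirs on pof mutant replicate 2 (0.066). The cause was not tested.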
